A study of Glycyrrhiza uralensis with 12 samples.

Results

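The comparison described here is that of *Glycyrrhiza uralensis* (licorice) seedlings under salt stress with and without *Bacillus cereus* G2. It takes the 3 libraries labelled as salt stress combined with G2 (S + G2) and the 3 libraries of salt stress alone (S), which are 6 of the 12 libraries of the series. By the labels, plants of S + G2 received 300 mL of water with 75 mM NaCl and 100000000 cfu per mL of G2, and those of S saline water without bacteria. The study's methods divide this into separate waterings, the salt at sowing and later, on seedlings with true leaves, distilled water with G2 for S + G2 or without it for S. All plants grew from seed in sterilized, nutrient-free desert sand and were taken at 45 days, so both groups share the salt and the lack of nutrients. The other 6 libraries came from plants given salt-free water with G2 (CK + G2) or without it (CK), 3 of each, and are used only to set the G2 difference beside the one without salt. Seedlings were ground and grouped by weight before RNA extraction, and how many entered a library was not stated.

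*G. uralensis* is a desert legume grown for its root, and G2 is an endophyte, a bacterium that lives inside plant tissue, first taken from roots of this species. Salt in the root zone limits water uptake and brings sodium and chloride into the shoot, and plants answer by changing ion transport, osmolyte and sugar metabolism and the processing of their transcripts. Inoculated bacteria can alter these responses through hormones, volatiles and the products of their own metabolism. Genes in the deposited annotation carry identifiers and no function, so only the 22 carbohydrate genes that the study itself names are given an enzyme name here.

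Expression was read as full-length cDNA, by the labels on a nanopore instrument, and is given in counts per 1000000 mapped reads (CPM), for genes and for transcripts (the separate isoforms of a gene). Identifiers that begin with Glyur belong to the annotation, and those that begin with ONT are loci or transcripts that the authors assembled from the long reads. The libraries held 3755817 to 3864217 reads in S + G2 and 3447886 to 3929023 reads in S. The gene table lists 29436 genes, of which 21518 reached 1 CPM in at least 3 of the 6 libraries and were tested, and the transcript table lists 61882 transcripts, of which 40148 were tested. The most abundant Rubisco small chain gene, a marker of green tissue, stood at 18027 to 32629 CPM in S + G2 and at 20058 to 21858 CPM in S, so every library held green tissue. In bulk tissue, fewer cells of a type and less RNA per cell cannot be told apart. P-values measure the spread between 3 libraries a group.

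Few genes differed by more than the spread between libraries when S + G2 was set against S. After Benjamini-Hochberg adjustment over all genes by limma, 1 gene (0.00465% of those tested) differed at an adjusted p under 0.05, and it fell. At an unadjusted p under 0.05, 1266 genes (5.88%) differed. The study's stated rule, read here as an unadjusted p under 0.05 together with a fold change of at least 1.5, is called the criterion below, and 826 genes (3.84%) met it, 420 higher (1.95%) and 406 lower (1.89%) in S + G2. The median gene at the criterion differed by 0.87 on the log2 scale, 297 differed by at least 2-fold and 26 by at least 4-fold, 13 higher and 13 lower. Over all tested genes the log2 fold change had a median of -0.02 and quartiles of -0.20 and 0.17.

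Count tests were run on the reads behind the CPM. By the quasi-likelihood test of edgeR, 1 gene (0.00544%) passed after adjustment and 702 genes (3.82%) met the criterion, and by DESeq2 33 genes (0.144%) passed, 17 higher and 16 lower, and 739 (2.61%) met the criterion. Of the 826 genes, 582 met the criterion by edgeR and 544 by DESeq2, all in the same direction. The count depended on single libraries: it was 1407 without S + G2 replicate 3 and 639 without S + G2 replicate 1, and 435 to 586 of the 826 genes met the criterion again when any 1 library was left out. After adjustment the count was 0 without S + G2 replicate 1, without S replicate 1 or without S replicate 2, 5 without S replicate 3 and 9 without S + G2 replicate 3. In 156 genes (0.725% of those tested), 68 higher and 88 lower, the criterion was met by all 3 tools and in all 6 fits without a library, with no overlap between the groups and a mean of at least 5 CPM. The groups did not overlap in 2484 genes (11.5%) and in 4604 transcripts (11.5%), which is the background for each remark on overlap below.

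**Figure D1:**
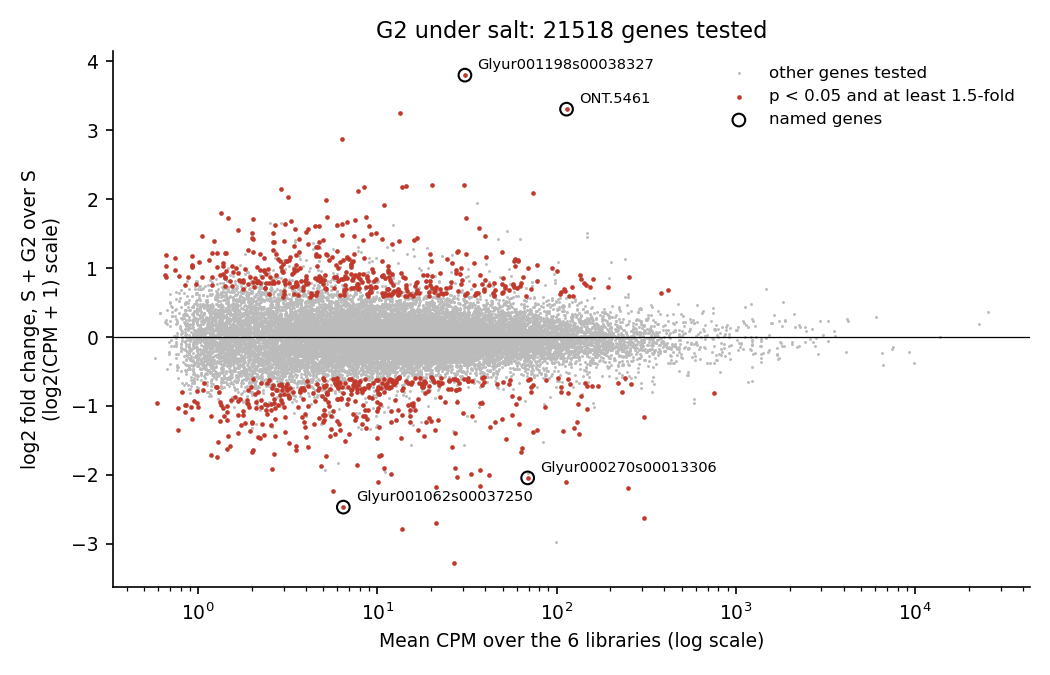
Each point is 1 of the 21518 genes tested, with its mean CPM over the 6 libraries (log axis) against its log2 fold change of S + G2 over S on the log2(CPM + 1) scale. The 826 genes at the criterion (red) lie on both sides of 0, and the 4 named genes (circles) span log2 fold changes of 3.80 to -2.47.

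The gene that fell after adjustment was Glyur000270s00013306, an annotated gene of unnamed function on Scaffold00270 (plus strand, bases 215047 to 215532), whose model is a single exon of 486 bases. It had 27.7, 23.2 and 28.2 CPM in S + G2, against 104, 122 and 109 CPM in S. The groups were far apart and each was narrow, with means of 26.4 ± 2.74 CPM in S + G2 and 112 ± 9.17 CPM in S (SD, n = 3 each). The log2 fold change was -2.04 (SE 0.146) with an adjusted p of 0.00612 by limma, 0.0113 by edgeR and 6.31e-19 by DESeq2. Leaving out a library kept the change between -2.09 and -1.96, but the adjusted p was above 0.05 without S + G2 replicate 1 (0.0639), without S replicate 1 (0.0646), without S replicate 2 (0.104) and in a limma fit of all 12 libraries (0.204). Without salt the same gene had 43.7, 117 and 119 CPM in CK + G2, against 70.0, 59.8 and 36.02 CPM in CK, so those groups overlapped.

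By the same rule for naming, Glyur001062s00037250 was the second lower gene, a 4-exon gene on Scaffold01062 (plus strand, bases 54776 to 57618). It had 0.533, 0.264 and 4.14 CPM in S + G2, against 7.25, 12.4 and 14.3 CPM in S. The values in S + G2 rest on 2, 1 and 16 reads. The log2 fold change was -2.47 (SE 0.521), with an adjusted p of 0.525 by limma. Without S + G2 replicate 3 it was -3.10, with an adjusted p of 0.0419 by limma, and with a pseudocount of 0.1 it was -3.47. Without salt the gene stood between 11.2 and 11.6 CPM in CK + G2, against 0, 7.47 and 8.48 CPM in CK.

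By limma and by edgeR 0 genes were higher after adjustment, and the named genes on that side met the criterion only. Glyur001198s00038327, with 3 exons on Scaffold01198 (plus strand, bases 36065 to 38146), had 83.3, 40.4 and 47.4 CPM in S + G2, against 7.83, 0 and 6.11 CPM in S, a log2 fold change of 3.80 (SE 0.729, adjusted p 0.493 by limma). Without a library the log2 fold change ran from 2.80 (without S replicate 2) to 4.37 (without S replicate 1), and with a pseudocount of 0.1 it was 4.997. Without salt it had no read in any CK + G2 library and 12.6, 0 and 0 CPM in CK. Its model overlaps Glyur001198s00038328 on the other strand, and the sources used here do not say that reads were assigned by strand. The assembled locus ONT.5461 had 58.6, 162 and 414 CPM in S + G2, against 10.7, 24.5 and 13.0 CPM in S, a log2 fold change of 3.30 (SE 0.607), with an adjusted p of 0.470 by limma and 0.00838 by DESeq2. The log2 fold change was 4.01 without S + G2 replicate 1 and 2.61 without S + G2 replicate 3. The 3 libraries of S + G2 spread over a wide range, as did those of CK at 4.38, 255 and 122 CPM, while CK + G2 stayed at 4.47 to 19.4 CPM.

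**Figure D2:**
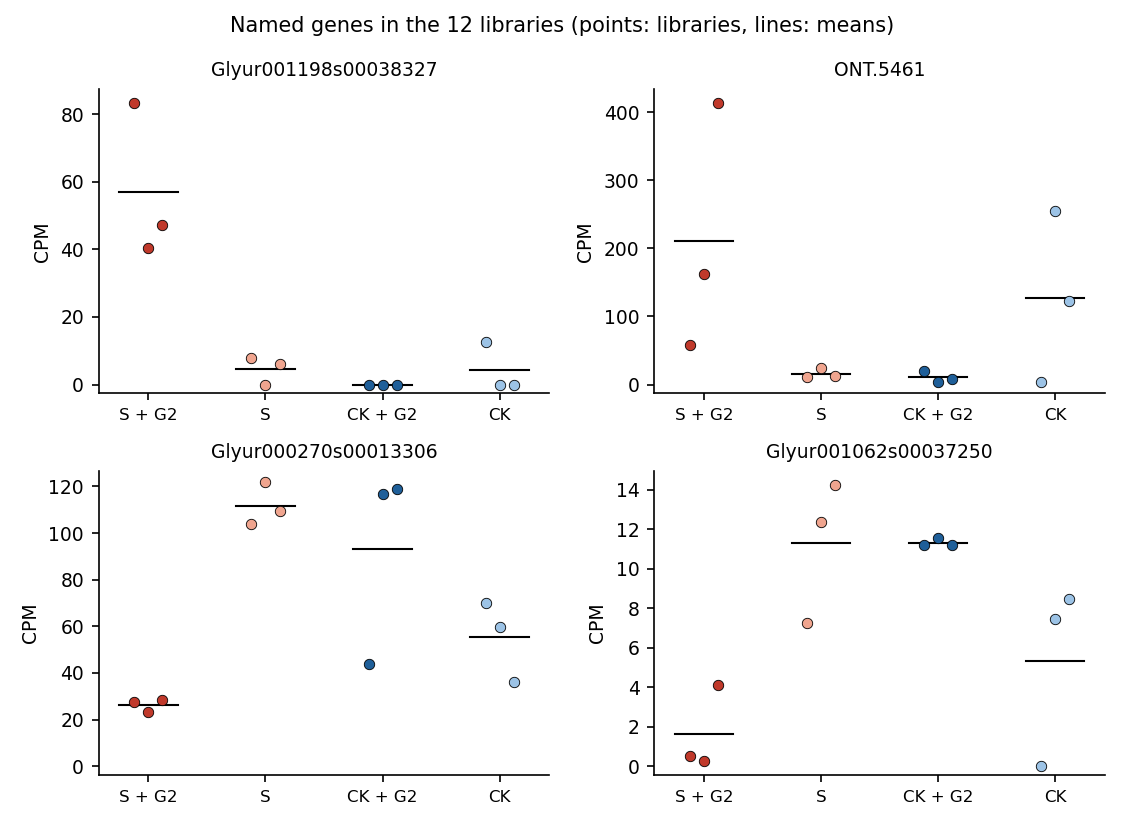
CPM of the 4 named genes in each library (points) with the mean of each treatment (line), S + G2 and S at the left and CK + G2 and CK at the right. Glyur000270s00013306 lies between 23.2 and 28.2 CPM in S + G2, below every other library, and ONT.5461 varies within S + G2 and within CK.

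At the level of transcripts, 4 passed an adjusted p under 0.05 by limma (0.00996% of 40148), of which 2 rose and 2 fell (0.00498% each). At an unadjusted p under 0.05 there were 2394 (5.96%). By edgeR 0 passed, with 1829 (6%) at an unadjusted p under 0.05 and 1565 (5.13%) at the criterion. By DESeq2 81 (0.229%) passed, 35 higher and 46 lower, and 1544 (2.6%) met the criterion. By limma, 2075 transcripts (5.17%) met the criterion, 985 higher (2.45%) and 1090 lower (2.71%), among them 528 of 13067 annotated transcripts (4.04%) and 1547 of 27081 assembled ones (5.71%). The count at the criterion was 3046 without S + G2 replicate 3, and the count after adjustment was then 37, while it was 0 without S + G2 replicate 1, S + G2 replicate 2 or S replicate 2 and 2 without S replicate 1. For the 4 transcripts the adjusted p by limma was 0.163 to 0.309 with all 12 libraries in the fit and 0.135 to 0.323 with a pseudocount of 0.1, where the log2 fold changes were 6.46 for ONT.2214.2, 6.21 for ONT.7958.3, -6.24 for ONT.8383.4 and -5.91 for Glyur000306s00014000.1. In 362 transcripts (0.902%), 174 higher and 188 lower, the criterion held by all 3 tools and without any 1 library, with no overlap and a mean of at least 5 CPM.

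The table of transcripts does not pair assembled transcripts with annotated genes. For the loci described next a pairing was taken from arithmetic: the reads of the gene, less those on its annotated transcripts, equal the summed reads of the assembled locus in all 12 libraries, and no other locus gives that match. This was so for 13597 of the 14095 genes with at least 30 such reads.

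ONT.2214.2 was the transcript with the lowest p, and it rose. It had 57.2, 64.4 and 81.0 CPM in S + G2, against 0, 1.41 and 2.80 CPM in S, where its reads numbered 0, 5 and 11. The log2 fold change was 5.02 (SE 0.436), with an adjusted p of 0.0290 by limma, 0.147 by edgeR and 2.21e-23 by DESeq2. Its reads pair with Glyur000043s00003803, a single-exon gene of 465 bases on Scaffold00043 (minus strand, bases 236101 to 236565). The gene itself did not meet the criterion, with 133, 255 and 157 CPM in S + G2, against 203, 166 and 157 CPM in S (log2 fold change 0.00, SE 0.239). The sister transcript ONT.2214.1, the most abundant of the locus in S, had 66.6, 159 and 66.2 CPM in S + G2, against 178, 136 and 133 CPM in S, which overlap. The adjusted p of ONT.2214.2 was above 0.05 without S + G2 replicate 1 (0.191), without S + G2 replicate 2 (0.161) and without S replicate 2 (0.229). Without salt it was read at 18.7 to 23.5 CPM in CK + G2, against 0, 11.1 and 30.3 CPM in CK.

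The other transcript that rose was ONT.7958.3, whose reads pair with Glyur000270s00013302, a 7-exon gene on Scaffold00270 (plus strand, bases 194638 to 198209). It had 7.99, 9.50 and 5.18 CPM in S + G2 and no read in any S library. Set against a floor of 3 reads per S library, it was at least 9.15-fold higher in S + G2, with an adjusted p of 0.0361 by limma. It passed the filter only through S + G2, where it was high, so this p is no independent support. Without a library of S the adjusted p was 0.133 to 0.229, and without a library of S + G2 the transcript was not tested, since 2 libraries above 1 CPM remained. The gene total differed little, at 19.7, 19.5 and 19.2 CPM in S + G2, against 16.0, 17.7 and 14.5 CPM in S (log2 fold change 0.27, SE 0.166). The annotated form Glyur000270s00013302.2 had 10.7, 9.23 and 11.9 CPM in S + G2, against 13.6, 14.9 and 12.2 CPM in S.

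Scaffold00270, singled out because it holds both Glyur000270s00013306 and Glyur000270s00013302, had 2 of 26 tested genes at the criterion, where 3.84% of all tested genes were and 1 of 26 on Scaffold00306, described next. The second of the 2 is Glyur000270s00013301, chosen after its values were seen, which ends 2661 bases before Glyur000270s00013302 begins. It had 16.2, 14.2 and 5.43 CPM in S + G2, against 0, 0.562 and 1.78 CPM in S (log2 fold change 2.87, SE 0.483, adjusted p 0.452 by limma and 0.000732 by DESeq2). It was higher in S + G2 where Glyur000270s00013306 was lower.

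Both transcripts that fell belong to neighbouring genes on Scaffold00306 that point away from each other with 2449 bases between them. ONT.8383.4, paired with Glyur000306s00013999 (minus strand, bases 31952 to 34421, 3 exons), had 0, 0.264 and 0 CPM in S + G2, against 8.12, 15.5 and 12.2 CPM in S. These are 1 read in S + G2 and 131 reads in S, a ratio of S over S + G2 of 137 in depth-scaled reads with an exact 95% counting interval of 24.1 to 5441. The annotated transcript Glyur000306s00014000.1, from the gene at bases 36871 to 39316 of the plus strand with 9 exons, had 0, 0.264 and 0 CPM in S + G2, against 7.25, 13.5 and 7.89 CPM in S. That is 1 read in S + G2 against 104 in S, a ratio of S over S + G2 of 109 with an interval of 19.1 to 4328. Both intervals cover counting error in the summed reads and not the spread between libraries. Adjusted p-values by limma were 0.0290 for ONT.8383.4 and 0.0361 for Glyur000306s00014000.1, and both were 0.147 by edgeR. Both transcripts passed the limma filter only through S, where they were high, so the limma p-values are no independent support. Both were above 0.05 without S + G2 replicate 1 (0.191 and 0.253) and without S + G2 replicate 2 (both 0.161), and neither was tested without a library of S. In each of these transcripts a library of CK + G2, replicate 2, also had no read, while CK had 3.88 to 9.01 CPM of ONT.8383.4 and 5.54 to 10.3 CPM of Glyur000306s00014000.1.

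The totals of these genes did not meet the criterion. Glyur000306s00014000 had 51.7, 48.0 and 45.8 CPM in S + G2, against 57.7, 52.3 and 41.2 CPM in S (log2 fold change -0.04, SE 0.163). Glyur000306s00013999 had 35.9, 36.4 and 68.8 CPM in S + G2, against 57.4, 57.1 and 38.9 CPM in S (log2 fold change -0.16, SE 0.271), and its model overlaps Glyur000306s00013998 on the other strand. Within ONT.8383 the form ONT.8383.2 was higher at the criterion, with 26.6, 33.0 and 59.0 CPM in S + G2, against 24.4, 8.998 and 13.2 CPM in S (log2 fold change 1.32, SE 0.383, adjusted p 0.620 by limma). Without salt, libraries of the same treatment differed widely in this form, with 43.2, 0.263 and 0 CPM in CK + G2 and 46.1, 0 and 0 CPM in CK. ONT.8383.1 followed ONT.8383.4, with 0, 0 and 0.259 CPM in S + G2, against 13.3, 12.7 and 5.34 CPM in S, and an adjusted p of 0.0542 by limma. It too passed the filter only through S.

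Among transcripts grouped by name, few loci had isoforms called in opposite directions. Annotated transcripts were grouped under their gene and assembled ones under their locus. Opposite moves between an annotated and an assembled form of a gene were therefore not counted. Of 6774 loci with at least 2 tested transcripts, 895 had a transcript at the criterion and 39 (0.576%) had transcripts at the criterion in opposite directions, of which 5 met the stricter conditions above in every called transcript. The test of the leading transcript's share of its locus, over 6865 loci, gave 0 after adjustment in limma and 447 (6.51%) at an unadjusted p under 0.05, and no other tool was run on the shares. After adjustment there were 2 loci without S + G2 replicate 3 and 2 without S replicate 1. Of the 528 annotated transcripts at the criterion, the gene met it too, in the same direction, for 299 and did not for 229.

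The locus with the widest gap among those 5, picked after its values were seen, was ONT.13786, paired with Glyur001026s00034299 on Scaffold01026 (minus strand, bases 14862 to 18030, 4 exons). ONT.13786.1 had 284, 255 and 238 CPM in S + G2, against 117, 118 and 148 CPM in S, a log2 fold change of 1.02 (SE 0.176). ONT.13786.2 had 2.66, 4.75 and 25.9 CPM in S + G2, against 165, 212 and 169 CPM in S, a log2 fold change of -4.46 (SE 0.608). The groups did not overlap for either form, while the gene stayed at 293, 264 and 270 CPM in S + G2, against 285, 330 and 323 CPM in S (log2 fold change -0.18, SE 0.138). Adjusted p-values by limma were 0.276 for ONT.13786.1 and 0.161 for ONT.13786.2, and by DESeq2 0.00367 and 0.00916. The log2 fold change of ONT.13786.2 was -5.31 without S + G2 replicate 3 and -3.87 without S + G2 replicate 1. Every CK + G2 and CK library had between 89.3 and 248 CPM of ONT.13786.2, so the 3 S + G2 libraries were the lowest of the 12.

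The gene that fell showed the same kind of split within its paired locus ONT.7961. ONT.7961.1 had 0.533, 1.85 and 17.1 CPM in S + G2, against 97.5, 109 and 105 CPM in S (log2 fold change -4.61, SE 0.736, adjusted p 0.216 by limma). ONT.7961.2 had 27.2, 21.4 and 11.1 CPM in S + G2, against 6.38, 12.4 and 4.07 CPM in S, which overlap (log2 fold change 1.31, SE 0.412, adjusted p 0.694 by limma). S + G2 replicate 3 held more of the first form and less of the second than the other S + G2 libraries, and without it the log2 fold change of ONT.7961.1 was -5.65, against -3.87 without S + G2 replicate 1. CK + G2 replicate 1 had 19.7 and 24.1 CPM of them.

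**Figure D3:**
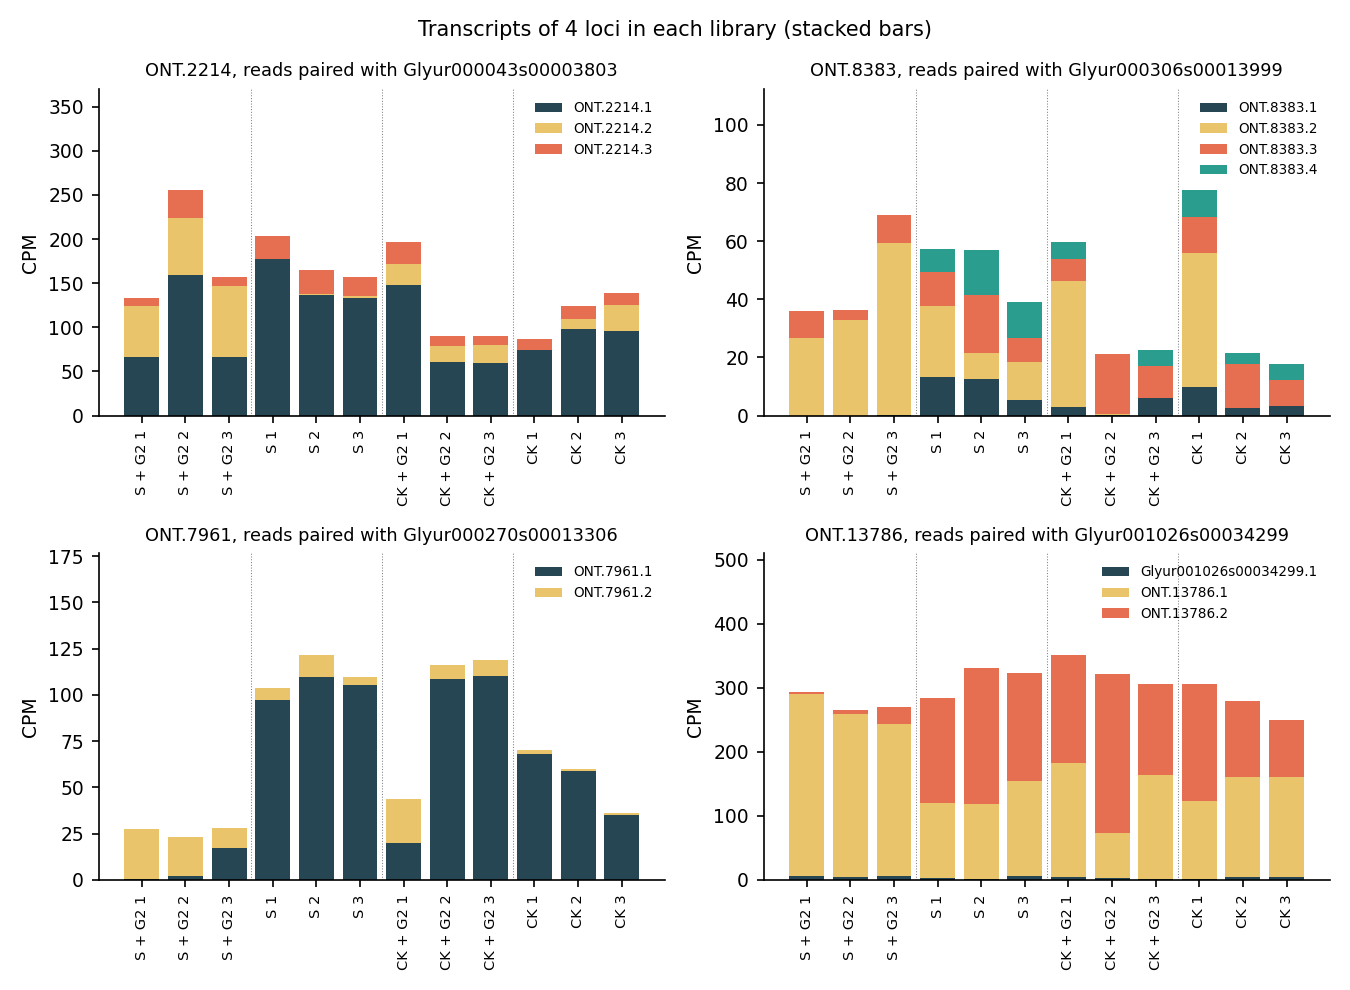
Stacked CPM of the transcripts of 4 loci in each of the 12 libraries, leaving out transcripts under 3 CPM in every library. ONT.2214.2 stands at 57.2 to 81.0 CPM in S + G2 and at no more than 2.80 CPM in S. It is also read in CK + G2 (18.7 to 23.5 CPM) and in CK (up to 30.3 CPM). ONT.8383.4 is missing in S + G2 but for 1 read, and ONT.7961.1 and ONT.13786.2 are small in S + G2 beside S.

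Genes at the criterion were unevenly spread over gene structures and levels, and 3.84% of all tested genes is the share to read them against. Single-exon genes were at the criterion in 163 of 2503 cases (6.51%), 108 higher and 55 lower in S + G2, and genes with several exons in 593 of 17885 (3.32%), 270 higher and 323 lower. The share was lower at each step of exon number, being 4.55% at 2 to 4 exons, 2.99% at 5 to 9, 2.24% at 10 to 19 and 1.36% (19 of 1396) at 20 or more. Assembled loci outside the annotation stood at 70 of 1130 (6.19%), 42 higher and 28 lower, and annotated genes at 756 of 20388 (3.71%), 378 in each direction. Genes with at least 2 annotated transcripts were at 45 of 1520 (2.96%), and those with 1 at 711 of 18868 (3.77%). Without S + G2 replicate 3, 1407 genes met the criterion, against 826 in the main fit, so 3.84% is not the share to set beside that fit. The shares there were 10.6% for single-exon genes, 5.81% for genes with several exons, 11.4% for assembled loci and 6.39% for annotated genes. Annotated genes and assembled loci make up all genes tested, so the share of all genes in that fit lies between 6.39% and 11.4%.

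Low expression moves with these classes. The share at the criterion was 5.24% below a mean of 5 CPM, 4.23% at 5 to 20 CPM, 2.39% at 20 to 100 CPM and 2.71% above 100 CPM, with 0 of the 99 genes above 1000 CPM. Without S + G2 replicate 3 it was 6.45% above 100 CPM, which is near the share of annotated genes of all levels in that fit, given above. Below 5 CPM the shares were 5.53% for single-exon genes and 5.13% for the others, at 5 to 20 CPM 7.58% and 3.63%, and above 20 CPM 6.67% and 1.95%. The gap between the 2 structures was thus wide only in genes above 5 CPM. These are counts with no test.

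**Figure D4:**
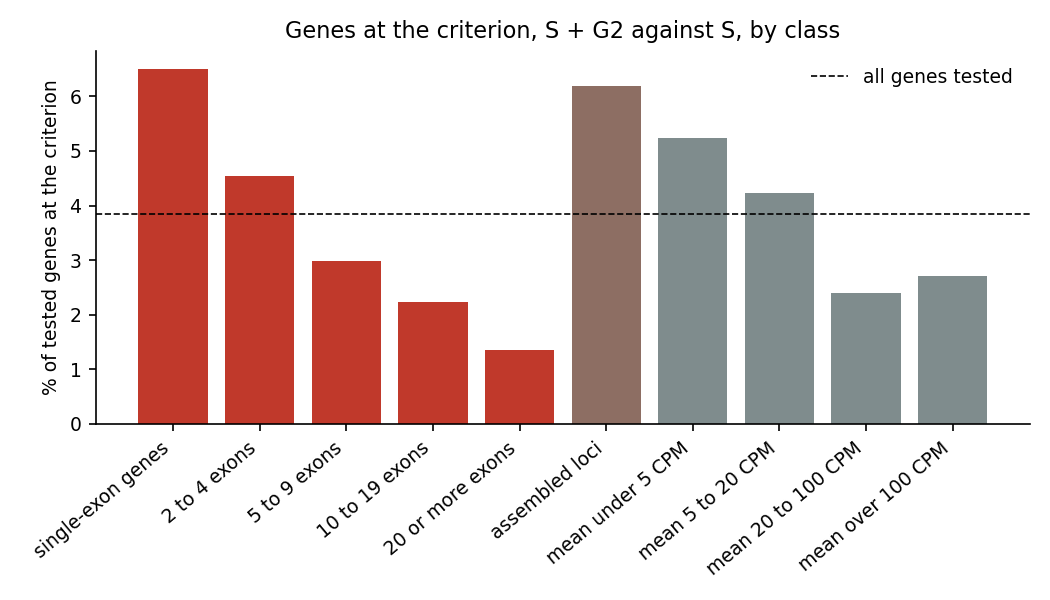
Percent of tested genes at the criterion (S + G2 against S) by number of exons (red), for assembled loci (brown) and by mean CPM (grey), with the 3.84% of all tested genes as a dashed line. The bars stand at 6.51% for single-exon genes and at 1.36% for genes of 20 or more exons.

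Few genes at the criterion had a next gene called in the same direction, though at shares above those of all neighbours, with no test. Of 288 genes higher at the criterion with a next tested gene on the scaffold, 11 had a neighbour that was also higher (3.82%), where 1.72% of all such neighbours were. Of 296 lower genes, 8 had a lower neighbour (2.70%), where 1.78% of all were. Without overlapping pairs the counts were 10 and 8. Without S + G2 replicate 3 they were 28 and 28, where 1407 genes met the criterion, against 826 in the main fit. The higher pairs numbered 5 without S + G2 replicate 1 (639 genes at the criterion) and 19 without S + G2 replicate 2 (1009 genes). The lower pairs numbered 3 without S replicate 2 (785 genes).

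Reads in every library of a group and none in the other were few and low. Counting at least 3 reads in each library, 4 genes were read in S + G2 and not in S and 3 genes in S and not in S + G2. These are among 29436 genes listed, and all had a mean of 2.70 CPM or less. Among the 61882 transcripts listed the counts were 8 and 8, the highest at 7.55 CPM being ONT.7958.3. Without salt they were 1 gene and 3 transcripts in CK + G2 alone, and 6 genes and 7 transcripts in CK alone.

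The 22 genes of carbohydrate metabolism that the study names, chosen by it on these samples and so no independent evidence of direction, all passed the filter. Of them, 4 were higher and 1 lower at the criterion (22.7%, against 3.84% of all genes), and 0 passed an adjusted p under 0.05 by limma, by edgeR or by DESeq2. The study picked them as differing in these same libraries, so this share cannot be read as an enrichment. The median log2 fold change of the 22 was 0.06, beside -0.02 over all genes, with 13 above 0. The count was 3 without S + G2 replicate 1 and 7 without S + G2 replicate 3.

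All 4 higher genes are of starch and sucrose metabolism, where 4 of 11 members met the criterion, a share with the same limit. The gene of sucrose synthase (SS), which splits or forms sucrose in exchange with a nucleotide sugar, Glyur001957s00039090, had 257, 151 and 173 CPM in S + G2, against 115, 103 and 123 CPM in S (log2 fold change 0.73, SE 0.203). The α-glucosidase gene Glyur000005s00001105, whose enzyme frees glucose from maltose and short glucans, had 34.1, 27.7 and 33.4 CPM in S + G2, against 23.2, 19.1 and 14.8 CPM in S (log2 fold change 0.72, SE 0.199). In both genes the groups did not overlap.

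The trehalose 6-phosphate synthase/phosphatase (TPS) gene Glyur000018s00003759, of the pathway to the disaccharide trehalose, had 45.3, 37.5 and 64.2 CPM in S + G2, against 29.3, 33.7 and 26.7 CPM in S (log2 fold change 0.66, SE 0.211). The gene of INV, the invertase that cleaves sucrose into glucose and fructose, Glyur000064s00005640, had 9.85, 7.65 and 4.66 CPM in S + G2, against 4.64, 3.09 and 4.33 CPM in S (log2 fold change 0.70, SE 0.303). Its lowest S + G2 library and highest S library nearly touch, at 18 and 16 reads. Adjusted p-values of these 4 genes by limma were 0.724 for SS and α-glucosidase, 0.781 for TPS and 0.843 for INV. INV met the criterion only without S + G2 replicate 3 among the 6 fits without a library (unadjusted p by limma 0.0547 to 0.171 in the others), and not by DESeq2 (unadjusted p 0.0715). The fold change was under 1.5 for SS without S + G2 replicate 1 (1.42-fold), for α-glucosidase without S replicate 3 (1.48-fold) and for TPS without S + G2 replicate 3 (1.37-fold).

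The lower gene was a pyruvate decarboxylase (PDC), the entry enzyme of ethanol fermentation, Glyur003994s00042985. It had 4.26, 5.28 and 5.18 CPM in S + G2, against 15.7, 12.1 and 10.2 CPM in S (log2 fold change -1.19, SE 0.234, adjusted p 0.493 by limma). The groups were clearly apart, and CK at 3.86, 5.26 and 2.42 CPM was on the level of S + G2. CK + G2 had 4.37, 9.21 and 8.13 CPM. The second PDC gene, Glyur000136s00007955, had 5.59, 12.7 and 8.02 CPM in S + G2, against 8.12, 4.78 and 6.36 CPM in S, and did not pass. The 4 carbon fixation genes had log2 fold changes of 0.03 to 0.19, and none met the criterion. The other 7 genes of glycolysis and the tricarboxylic acid cycle did not meet it either.

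For 3 of the higher genes the study designed primers for PCR. Its qRT-PCR, on the RNA pools used for sequencing, gave α-glucosidase as raised and INV as lowered by G2 under salt. SS was not listed there as changed by G2. The study's sequencing list marks SS, α-glucosidase and TPS as raised in this comparison, and the PDC gene that was lower here as lowered. It marks INV as unchanged. The study's enzyme assays, which do not measure RNA, gave higher activities of SS and of neutral and acid invertase with G2 under salt. The higher INV values here go against the study's PCR, while its invertase activities rose. The primers are shown since they are the only sequences of these genes in the sources used. Each is given 5′ to 3′ and with no position, as no genome sequence was used.
SS forward: tttgttgctttggctgttcg
SS reverse: ttagcagaaagatggcggttg
α-glucosidase forward: taccactcctactccactcccact
α-glucosidase reverse: caaagacttgcctgttgtggg
INV forward: atacccttcaaaccctgtcctg
INV reverse: gcattccctctacacgctcata

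**Figure D5:**
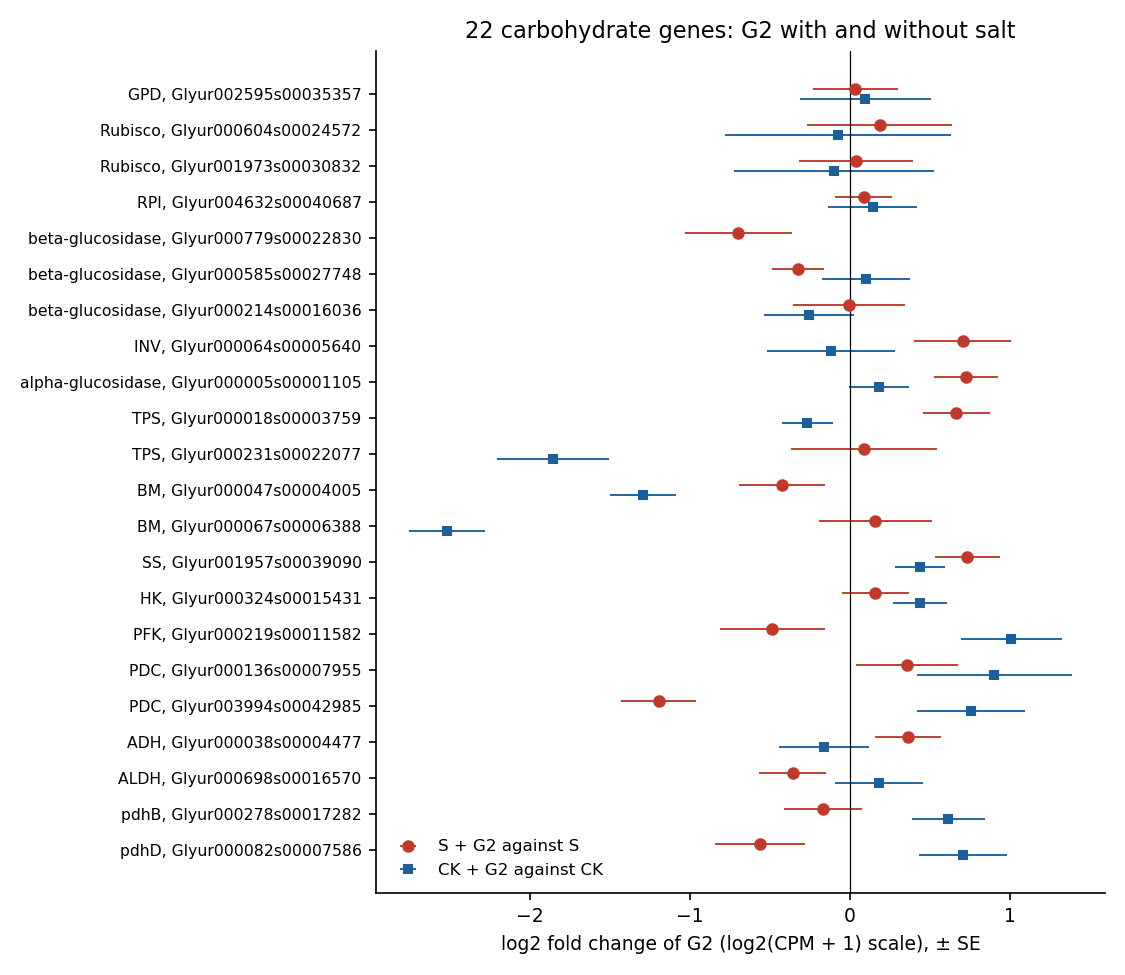
Log2 fold change of G2 with its SE for the 22 carbohydrate genes, under salt (S + G2 against S, circles) and without salt (CK + G2 against CK, squares; 1 gene was not tested there). Under salt the values run from -1.19 for PDC to 0.73 for SS.

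The G2 difference without salt shares no library with that under salt, so the 2 could be set side by side. In CK + G2 against CK, 1064 of 21675 genes (4.91%) met the criterion, 451 higher and 613 lower, and 13 (0.06%) passed after adjustment in limma. Among the 20966 genes tested in both, 69 met the criterion in both comparisons. That is 8.81% of the 783 called under salt, beside 4.91% of all genes tested without salt. It is 6.88% of the 1003 called without salt, beside 3.84% of all genes tested under salt. The direction was the same for 32 of the 69 (16 higher and 16 lower) and opposite for 37. Across these genes, which are not independent, the log2 fold changes had a Pearson r of -0.05.

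A test of the difference between the 2 G2 effects, the interaction over all 12 libraries, gave 1 gene (0.0044% of 22751) and 10 transcripts (0.0228% of 43795) at an adjusted p under 0.05 by limma. None of the 8 named genes and transcripts was among them, their adjusted p lying between 0.112 for Glyur000270s00013306 and 0.685. ONT.13786.2 had an interaction of -4.99 on the log2 scale (SE 0.759, adjusted p 0.0533 by limma).

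The interaction gene was Glyur000768s00019888, named for this test after its values were seen. It had 79.6, 69.1 and 76.6 CPM in S + G2, against 47.3, 42.7 and 46.1 CPM in S, and 28.4, 28.1 and 28.6 CPM in CK + G2, against 87.8, 55.1 and 73.3 CPM in CK. The groups did not overlap in either comparison and the order was opposite, with an interaction of 2.002 on the log2 scale (SE 0.228, adjusted p 0.0153 by limma). Under salt alone its log2 fold change was 0.71 (SE 0.134, adjusted p 0.470 by limma).

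None of 4 whole-library values differed between S + G2 and S beyond the spread in the tests run. Genes with a read numbered 24863, 25005 and 24891 in S + G2, against 24859, 24884 and 24962 in S. The 100 most abundant genes took 27.5%, 29.9% and 27.9% of the reads in S + G2, against 25.96%, 27.6% and 28.3% in S. Assembled loci took 1.72% to 1.92% in S + G2 and 1.84% to 1.93% in S, and annotated transcripts took 29.9% to 30.7% in S + G2 and 30.1% to 30.4% in S. Exact two-sided permutation tests of these 4 values gave p of 0.5 to 1 (adjusted over the 4, 0.8 to 1), where 3 libraries against 3 cannot go below 0.1.

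The S + G2 libraries were spread more widely than those of S, which was not tested. The median SD of a gene on the log2(CPM + 1) scale was 0.279 in S + G2 and 0.247 in S, and 56.1% of genes had the larger SD in S + G2. Pairs of libraries correlated across genes at r of 0.936 to 0.955 within S + G2, 0.956 to 0.960 within S and 0.945 to 0.959 between the groups. The first principal component, with 29.0% of the variance, set S + G2 replicate 2 (51.2) against S + G2 replicate 3 (-36.1), with S between them at 2.11, -17.6 and -25.0. On the second, with 21.0%, S + G2 lay at 38.1, -8.79 and 32.7 and S at -26.7, -22.9 and -12.5, without overlap. The Rubisco gene above had its highest and lowest values in the libraries at the ends of the first component, 32629 CPM in S + G2 replicate 2 and 18027 CPM in S + G2 replicate 3, and the part of green tissue in the other differences was not tested.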

How the data were processed

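Full-length cDNA from 12 libraries was sequenced by the Oxford Nanopore method, per the labels on a PromethION; the study's methods follow that protocol but name an Illumina instrument for the sequencing. The authors filtered reads by length, quality and ribosomal origin, polished those with both primers, mapped them and deposited CPM, the reads on a feature per 1000000 reads mapped in that library. The submitters' processing notes name minimap2, its version and the genome build not given in the sources used here. Coordinates are taken from the deposited annotation.

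Whole reads were recovered from the CPM (100% of values whole within 0.01), a single read being 0.255 to 0.303 CPM. The floor for a feature without reads is 3 reads a library, and intervals cover counting error only. Differences were tested in R 4.3.3 with the trend fit of limma 3.58.1 on log2(CPM + 1), for features with at least 1 CPM in 3 of the 6 libraries, Benjamini-Hochberg adjusted over all tested. Fold changes are on that scale and understate those of low genes. The share of a leading transcript was tested the same way. Alternatives were edgeR 4.0.16 and DESeq2 1.42.0 on the recovered reads, other scalings, pseudocounts of 0.5 and 0.1, no filter, a mean of at least 5 CPM, all 12 libraries, a block for the replicate number, and fits without each library in turn. Scripts were tested on simulated data.

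Named features, at most 2 higher and 2 lower per table, are those at an adjusted p under 0.05, then those with the largest change that met the criterion by all 3 tools and in all 6 fits without a library, with no overlap and a mean of at least 5 CPM, plus the 22 genes named by the study. Members and lists were chosen with earlier results of these data known. Pairing assembled loci with genes by their reads was added after seeing the data. Replicate pairs differed by more than sampling noise (chi-square of 6.58 to 23.8 per degree of freedom over genes with at least 10 reads), so each library counts once.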

Additional observations from a re-analysis of the deposited data

Results flagged for a closer look

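The G2 difference of Glyur000768s00019888 under salt exceeded that without salt by 2.002 on the log2 scale (SE 0.228, adjusted p 0.0153 by limma over 12 libraries), with all 3 S + G2 libraries above all 3 of S and all 3 CK + G2 libraries below all 3 of CK. Among transcripts, 10 had such a difference at an adjusted p under 0.05 by limma. They include this gene's own annotated transcript, Glyur000768s00019888.1, at the same value, and 2 transcripts of the locus ONT.9087, so they are not 10 separate genes.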

How the results depend on the processing

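All 8 named genes and transcripts kept their direction and stayed at the criterion in each of the 117 fits that tested them. The rule for naming asked for much of this. ONT.7958.3, ONT.8383.4 and Glyur000306s00014000.1 were not tested without a library of the group where they were high. With a mean of at least 5 CPM, ONT.7958.3 and Glyur000306s00014000.1 were not tested either. They pass the filter only through that group, so the tally leaves out fits where their call could have been lost. The counts were less stable. At an adjusted p under 0.05, the number of genes, 1 in the main test, was 0 with all 12 libraries, 0 with the replicate number as a block and 33 by DESeq2, and 0 to 9 with a library left out. The number of transcripts, 4 in the main test, was 0 with a pseudocount of 0.1, 0 with a mean of at least 5 CPM, 2 with all 12 libraries (neither among the 4), 1 with the block, 0 by edgeR and 81 by DESeq2, and 0 to 37 with a library left out. Loci with a changed leading share numbered 0 to 2 with a library left out, and 0 when assembled and annotated transcripts were joined under a gene by their reads, an alternative chosen after seeing the data. At the criterion, a mean of at least 5 CPM gave 483 genes and 1023 transcripts, and leaving out a library gave 639 to 1407 genes and 1514 to 3046 transcripts, the highest without S + G2 replicate 3 in each. The causes were not tested, except that stricter filters test fewer features. The carbohydrate genes at the criterion numbered 3 to 7 without a library.

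The share at the criterion was 7.8% by edgeR for single-exon genes and 4.52% for genes under a mean of 5 CPM, beside 3.82% of all genes tested by edgeR. Without a library, 639 to 1407 genes met the criterion in all. In each of these fits the share of all genes lies between that of annotated genes and that of assembled loci. The share then ran from 4.96% to 10.6% for single-exon and 2.62% to 5.81% for multi-exon genes, 5.3% to 11.4% for assembled loci, 2.9% to 6.39% for annotated genes, 3.64% to 6.91% under 5 CPM and 1.81% to 6.45% above 100 CPM. Neighbouring pairs numbered 5 to 28 (higher) and 3 to 28 (lower). The difference in genes with a read was -63.7 after thinning to the shallowest library, against 18 without. The spread was not refitted without single libraries, since an SD of 2 is not comparable with one of 3. Same-numbered libraries of S + G2 and S deviated together with correlations of 0.0958, 0.00279 and 0.117, so the numbers were not taken as pairs; with the block 933 genes met the criterion. Depth limits features under about 5 CPM, where few reads decide a value.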
